A study of Mus musculus with 6 samples.

Results

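The erythroid lineage genes described here are 9 genes with known roles in the formation of red blood cells: Car1, Car2, Gata1, Klf1, Epor, Tfrc, Gfi1b, Ermap and Sphk1. They were chosen by name, as the transcript clusters (probe sets for 1 gene or transcript) whose platform gene symbol is exactly 1 of these, out of 30145 gene symbols named alone on the array. Each symbol had 1 cluster, so no choice between clusters was needed, and all 9 clusters were bright enough to be tested. They were compared between 3 arrays of wild-type mice (labelled WT) and 3 arrays of mice labelled CDK19-/-. That label names a knockout of the Mediator kinase gene Cdk19. Both groups were aged 6 to 8 weeks, and no treatment is named for either. Bone marrow was depleted of lineage-positive cells, and hematopoietic stem cells (HSCs) were sorted from it by flow cytometry. The labels give neither the gate, the strain, the sex, the deleted part of Cdk19 nor how many animals stand behind an array, so p-values measure the spread between arrays. Fewer cells of a type and less RNA per cell cannot be told apart in these bulk samples.

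Red blood cells arise from HSCs through progenitors that first keep both megakaryocyte and erythroid potential. Gata1 and Klf1 encode the transcription factors that commit these progenitors to the erythroid fate. The hormone erythropoietin, acting through its receptor Epor, keeps the committed cells alive. Tfrc then brings in iron for heme, and the carbonic anhydrases Car1 and Car2 interconvert carbon dioxide and bicarbonate.

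GATA factors bind short motifs, searched here by their letters AGATAA and AGATAG and by the related forms TGATAA and TGATAG. Klf1 binds CACCC elements, searched as CCNCNCCC. The 250 bases before each RefSeq start site (build GRCm38.p6) were searched on both strands. Promoter sequences matched 7 of the 9 genes by symbol, all except Car1 and Car2. At 1 or more start sites, 5 of the 7 held a GATA match and 5 held a CACCC match, and 3 held both. Sphk1 has 5 listed start sites and Tfrc 2, so these genes had more chances. Among all 32851 promoters of the table, 26.5% held a GATA match and 45.9% a CACCC match. The 4 genes with a single start site and a GATA match are shown because their products act at successive steps, from the regulators Klf1 and Gfi1b to the receptor Epor and the surface protein Ermap. Each stretch is the 130 bases before the start site, 5′ to 3′, with the matched letters in capitals. Overlapping CACCC matches run together.
Klf1, chr8:84901852-84901981, plus strand: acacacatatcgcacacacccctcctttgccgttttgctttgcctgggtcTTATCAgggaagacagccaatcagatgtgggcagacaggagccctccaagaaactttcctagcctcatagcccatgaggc
Gfi1b, chr2:28621983-28622112, minus strand: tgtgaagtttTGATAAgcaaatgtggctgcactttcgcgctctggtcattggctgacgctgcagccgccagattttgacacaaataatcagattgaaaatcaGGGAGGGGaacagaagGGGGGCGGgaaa
Epor, chr9:21963577-21963706, minus strand: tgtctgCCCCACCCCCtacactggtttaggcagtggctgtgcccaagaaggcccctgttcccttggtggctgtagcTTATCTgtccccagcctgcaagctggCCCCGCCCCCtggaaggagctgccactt
Ermap, chr4:119189996-119190125, minus strand: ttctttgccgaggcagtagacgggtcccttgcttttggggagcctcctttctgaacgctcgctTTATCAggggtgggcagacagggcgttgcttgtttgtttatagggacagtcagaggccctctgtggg
The GATA match of Epor begins 54 bases before the start site, that of Ermap 67, that of Klf1 80 and that of Gfi1b 120. Epor and Gfi1b hold matches to CCNCNCCC in the shown stretch, while Klf1 and Ermap hold none in the 250 bases searched. The shorter letters CACCC were not searched by themselves. The stretches of Klf1 and Ermap do hold them, in Ermap on the opposite strand, as GGGTG. These matches describe letters only, since no binding was measured.

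In the knockout HSCs, Car1 fell about 2.06-fold and the other 8 genes did not pass the test. Of the 39543 clusters tested on the whole array, 2.96% rose and 4.84% fell at an adjusted p under 0.05 (limma with Benjamini-Hochberg adjustment). Among the 9 genes 0 were higher and 1 was lower by limma, and at an unadjusted p under 0.05 the counts were 0 and 2, the second being Ermap. The median log2 change of the 9 genes was 0.03, against 0.00 over all tested clusters. The wild-type and knockout values did not overlap for 4 of the 9 genes, Car1, Ermap, Tfrc and Sphk1, 2 in each direction. Over all tested clusters the groups did not overlap in 26.5%, made up of 11.6% of all tested clusters higher and 14.9% lower in the knockout. Cdk19 itself fell by 0.97 on the log2 scale, from 12.44 ± 0.06 to 11.47 ± 0.05 (SD, n = 3 each; limma, adjusted p = 3.2e-04), in the direction the labels give. Its cluster still read 11.49, 11.42 and 11.51 on the knockout arrays, so these values do not show a loss of the whole transcript.

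Car1 encodes a cytosolic carbonic anhydrase that is abundant in red cells and is an early mark of erythroid progenitors. Its log2 level was 8.36, 8.31 and 8.36 on wild-type arrays 1, 2 and 3, and 7.44, 7.14 and 7.33 on the knockout arrays. All 3 knockout arrays lay well below all 3 wild-type arrays, and knockout array 2 was the lowest. The means were 8.34 ± 0.03 and 7.30 ± 0.15 (SD, n = 3 each), and the log2 change was -1.04 (SE 0.09; 95% interval -1.25 to -0.83; limma, Benjamini-Hochberg adjusted p = 0.0016). Of the 39543 tested clusters, 171 had a log2 change this low or lower, Car1 included. The change kept its direction and stayed past the threshold under all 12 alternative settings, with values from -1.11 to -0.96.

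Car2, a paralogue of Car1 that lies close to it on chromosome 3, did not follow it. Its log2 level was 13.62, 13.66 and 13.62 on the wild-type arrays and 13.71, 13.56 and 13.73 on the knockout arrays. The groups overlapped, and the log2 change was 0.03 with a 95% interval from -0.10 to 0.17 (limma, Benjamini-Hochberg adjusted p = 0.80). The log2 changes of Car1 and Car2 differed by 1.07, and the within-array differences of the genotypes did not overlap (SD 0.05 and 0.08; exact permutation p = 0.10, the smallest that 3 arrays against 3 allow; adjusted p = 0.12 over 6 gene pairs). Of the 16 carbonic anhydrase genes, 9 were bright enough to test, and Car1 was the 1 that passed. That is 11.1% of the tested genes, near the 7.8% of all tested clusters. The list's mean log2 level was 5.12 to 5.14 on wild-type arrays, above the array medians over all clusters of 4.40 to 4.48. The other 7 tested, besides Car1 and Car2, had log2 changes between -0.04 (Car5b, Car9 and Car13) and 0.06 (Car7, Car11 and Car12). The remaining 7, Car3 and Car4 among them, were too dim to test.

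**Figure D1:**
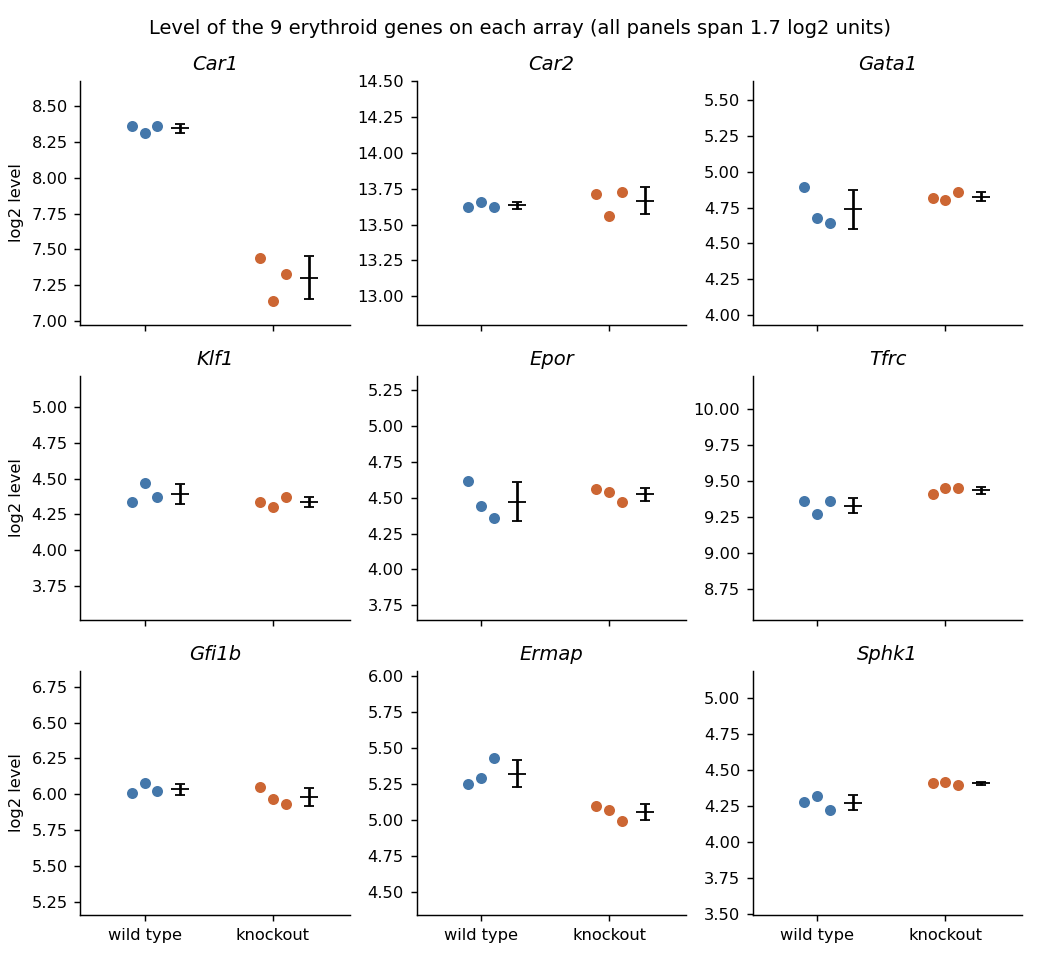
Level (log2) of each of the 9 erythroid genes on the 3 wild-type arrays (blue) and the 3 knockout arrays (orange), with the mean and SD of each group in black. Every panel spans the same range of log2 units, and Car1 is the gene whose groups lie far apart, with means of 8.34 and 7.30.

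The 3 transcription factor genes of the set did not pass. Gata1 encodes the factor that switches on most erythroid genes and is also needed by megakaryocytes. Its log2 level was 4.89, 4.68 and 4.64 in wild type and 4.82, 4.80 and 4.86 in knockout, so the groups overlapped and wild-type array 1 was the highest. The log2 change was 0.09 (95% interval -0.11 to 0.29; limma, adjusted p = 0.61). Klf1, whose product activates adult β-globin and many other red cell genes, measured 4.34, 4.47 and 4.37 in wild type and 4.34, 4.30 and 4.37 in knockout. These groups overlapped, sharing the values 4.34 and 4.37, and the log2 change was -0.06 (95% interval -0.21 to 0.10). Gfi1b encodes a repressor required for erythroid and megakaryocyte maturation. Its log2 level was 6.01, 6.08 and 6.02 in wild type and 6.05, 5.97 and 5.93 in knockout, a log2 change of -0.05 (95% interval -0.21 to 0.10).

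Neither receptor gene passed. Epor measured 4.62, 4.44 and 4.36 on the log2 scale in wild type and 4.56, 4.54 and 4.47 in knockout. The wild-type arrays spanned the knockout arrays, and the log2 change of 0.05 (95% interval -0.15 to 0.25) turned to -0.0067 without wild-type array 3. Tfrc, which encodes the transferrin receptor, measured 9.36, 9.27 and 9.36 in wild type and 9.41, 9.45 and 9.45 in knockout. All knockout arrays were above all wild-type arrays, but the log2 change of 0.11 (95% interval -0.03 to 0.24) did not pass (limma, adjusted p = 0.34).

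The last 2 genes showed small differences without overlap. Ermap, which encodes a red cell surface protein of the immunoglobulin superfamily carrying the Scianna blood group in humans, measured 5.25, 5.29 and 5.43 on the log2 scale in wild type. The knockout arrays measured 5.10, 5.07 and 4.99, all below the wild-type arrays. Its log2 change of -0.27 (SE 0.07; 95% interval -0.45 to -0.09) had an unadjusted p of 0.0092 and did not pass after adjustment (limma, adjusted p = 0.085; 0.070 to 0.24 over the alternatives). Sphk1, encoding a kinase that makes the lipid messenger sphingosine 1-phosphate, measured 4.28, 4.32 and 4.22 in wild type and 4.41, 4.42 and 4.40 in knockout. Its log2 change of 0.14 did not pass (95% interval 0.00 to 0.28; limma, adjusted p = 0.25).

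Gata1, Klf1, Epor and Sphk1 lay below a log2 level of 5 on all 6 arrays, close to the limit of 4.09 that the dimmest 40% of clusters set. No detection calls were used here. The 95% intervals of the 8 genes that did not pass, which are not adjusted for the number of clusters, reached from -0.45 to 0.29 at most. For Car2, Tfrc, Gfi1b and Ermap they do not include a change as large as that of Car1. For Gata1, Klf1, Epor and Sphk1 a fall of that size would end below the limit of 4.09. There it may not show in full, so the intervals of these 4 genes cannot decide whether such a fall took place.

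**Figure D2:**
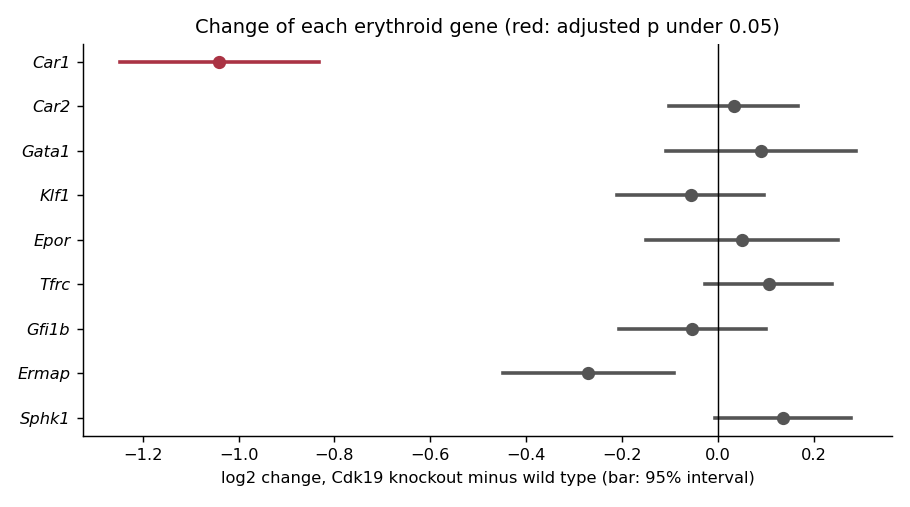
Log2 change (knockout minus wild type) of each of the 9 erythroid genes, with bars for the 95% interval from limma. The interval of Car1 lies from -1.25 to -0.83, while those of the other 8 genes stay between -0.45 and 0.29.

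Each of 6 genes of the set was set against a related gene, by the log2 difference between them within each array. Gfi1, the paralogue of Gfi1b that acts in granulocytes and HSCs, fell with a log2 change of -0.39 (SE 0.06; limma, adjusted p = 0.015), from 5.84, 5.77 and 5.72 in wild type to 5.39, 5.36 and 5.42. Its change was lower than that of Gfi1b by 0.33. Omitting wild-type array 1 (adjusted p = 0.059), 2 (0.065) or 3 (0.051), or instead knockout array 1 (0.0502) ended the call of Gfi1. Tfr2, which encodes a second transferrin receptor that binds the Epo receptor, rose from 8.37, 8.36 and 8.38 to 8.70, 8.63 and 8.78. Its log2 change was 0.33 (SE 0.06; limma, adjusted p = 0.024), above that of Tfrc by 0.23. Omitting wild-type array 1 (limma, adjusted p = 0.080), 2 (0.096) or 3 (0.096), or instead knockout array 1 (0.063) or 3 (0.059) ended the call of Tfr2. A common median for all arrays (limma, adjusted p = 0.058) and the replicate number as a block (0.093) also ended it.

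Sphk2 had a log2 change of -0.18 and Klf3, a repressor of Klf1 targets, one of -0.24, and neither passed (limma, adjusted p = 0.28 and 0.055). Klf3 passed with the dimmest 60% left out (limma, adjusted p = 0.029) and without an intensity trend (0.044). The changes of Sphk1 and Klf1 exceeded those of Sphk2 and Klf3 by 0.31 and 0.19, the latter 0.11 after quantile normalization. Gata2, which Gata1 replaces on many sites as erythroid cells mature, had a log2 change of -0.04, and that of Gata1 exceeded it by 0.13 (exact permutation p = 0.40). For 5 of the 6 pairs, all except Gata1 and Gata2, the within-array differences of the genotypes did not overlap. Each of these 5 had an exact permutation p of 0.10, the smallest possible, and an adjusted p of 0.12 over the 6 pairs, so none passed.

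Besides these 9 genes, 34 genes that regulate erythroid transcription were examined. Among the 32 bright enough to test, 8 were lower, 3 were higher and 21 failed the test, with a list median of -0.06. That is 34.4% called, against 7.8% of all tested clusters. The list's mean log2 level was 9.01 to 9.06 on wild-type arrays, while array medians over all clusters were 4.40 to 4.48. Leaving out the dimmest 60% of clusters raised the calls from 1172 higher and 1914 lower to 1291 and 2237. That filter tests fewer clusters and adjusts over those alone, yet more were called, so bright clusters were called more often. Thus 7.8% is not a like background for this list. It was also chosen with earlier results of these data known. Myb, whose product keeps progenitors dividing and restrains erythroid maturation, measured 14.66, 14.66 and 14.73 in wild type and 14.20, 14.06 and 14.10 in knockout. Its log2 change was -0.56 (SE 0.05; limma, adjusted p = 0.0020). Bcl11a, which silences embryonic and fetal globin genes, had a log2 change of -0.65, from a mean of 9.18 ± 0.07 to 8.52 ± 0.07 (SD, n = 3 each). Ikzf1, encoding the zinc finger factor Ikaros, had one of -0.53. Nfe2, which pairs with small Maf proteins at globin and platelet genes, fell by 0.71 on the log2 scale, from 7.13, 7.23 and 7.29 to 6.48, 6.41 and 6.63.

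The 3 regulators that rose were Bach1, Klf13 and Mafk. Bach1, a heme-sensing repressor that also pairs with small Maf proteins, rose by 0.71 (SE 0.07; limma, adjusted p = 0.0024), from 9.92, 9.89 and 9.96 to 10.75, 10.55 and 10.61. Klf13 rose by 0.63, and Mafk, encoding a small Maf protein, by 0.33. Among genes of the complex that Tal1 forms with GATA factors, the bridging genes Lmo2 and Ldb1 had log2 changes of -0.25 each and the corepressor gene Cbfa2t3 one of -0.47. Tal1 itself, at -0.28, did not pass (limma, adjusted p = 0.058; 0.034 with the dimmest 60% left out), nor did the Gata1 cofactor gene Zfpm1, at 0.19. Nfe2, Mafk, Lmo2, Ldb1, Cbfa2t3, Tal1 and Zfpm1 were chosen after their values were seen. Myb, Bcl11a, Ikzf1, Bach1 and Klf13 were also picked by their values, through a rule that took the most extreme statistics and smallest p-values.

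Bcl11a, Myb, Ikzf1, Nfe2, Bach1 and Klf13 passed whichever of the 6 arrays was omitted, with adjusted p-values from 0.0049 to 0.034 (limma). Lmo2 (0.059 to 0.15) and Ldb1 (0.075 to 0.14) lost their call in all 6 cases. Mafk lost it in 5 (0.11 to 0.17), all except the omission of knockout array 2. Cbfa2t3 lost it on omitting wild-type array 2 (0.066) or 3 (0.068). The number of regulators lower was 5, 4 and 4 on omitting wild-type array 1, 2 or 3 and 5 on omitting knockout array 1.

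**Figure D3:**
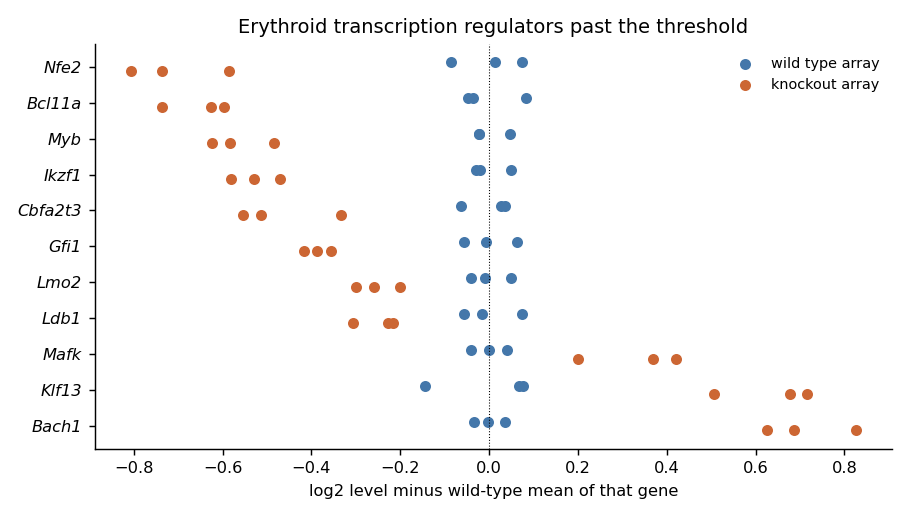
Log2 level of the 11 erythroid transcription regulators past the threshold on each array, minus the wild-type mean of that gene, for wild-type (blue) and knockout (orange) arrays. For all 11 the knockout arrays lie on one side of the wild-type arrays, 8 below and 3 above, with Nfe2 lowest at a log2 change of -0.71 and Bach1 highest at 0.71.

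Genes around the Epo receptor moved in both directions, although Epor did not pass. The receptor signals through the kinase Jak2 and the factors Stat5a and Stat5b, and Cish, Socs3 and Pim1 are targets that several cytokine receptors share. Among 27 such genes tested, 5 were higher, 3 were lower and 19 failed the test, with a median log2 change of 0.01. The 8 calls are 29.6% of the list, against 7.8% of all tested clusters. This list too was bright, at a mean log2 level of 9.55 to 9.56 on wild-type arrays, so 7.8% is not a like background. Cish rose by 1.13 (SE 0.13; limma, adjusted p = 0.0052), from 6.46, 6.53 and 6.71 to 7.86, 7.42 and 7.81. Socs3, a feedback inhibitor like Cish, rose by 0.75, from a mean of 6.37 ± 0.07 to 7.12 ± 0.06 (SD, n = 3 each). Irs2, an adaptor of insulin and cytokine receptors, had the largest rise of the list, by 1.36, from 11.21, 11.09 and 10.99 to 12.48, 12.43 and 12.45. The groups lay far apart for each of these 3 genes.

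The survival kinase gene Pim1 rose by 0.29. Jak2 had a log2 change of 0.17, Stat5a -0.07 and Stat5b -0.20, and these did not pass. Stat5b passed after quantile normalization (limma, adjusted p = 0.038), which makes 4 of the list lower. Kit, the stem cell factor receptor that cooperates with Epor, had a log2 change of -0.47, from 14.54, 14.53 and 14.53 to 14.06, 14.03 and 14.09. Ptpn6, a phosphatase that ends Epor signalling, also had a log2 change of -0.47, and the PI3-kinase subunit gene Pik3cd one of -0.33. Cish, Socs3, Irs2, Kit and Ptpn6 passed without any 1 array. Pim1 failed on omitting wild-type array 2 (limma, adjusted p = 0.055) or 3 (0.062) and after setting all arrays to 1 median (0.058). It also failed with the replicate number as a block (limma, adjusted p = 0.0502). Pik3cd failed on omitting wild-type array 1 (0.069), 2 (0.098) or 3 (0.11), or instead knockout array 1 (0.071) or 2 (0.065). On omitting wild-type array 2 or 3 the number of rises was 3. Pim1, Pik3cd, Jak2, Stat5a and Stat5b were chosen after their values were seen. Cish, Socs3, Irs2, Kit and Ptpn6 were also picked by their values, through the rule for the most extreme statistics and smallest p-values.

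**Figure D4:**
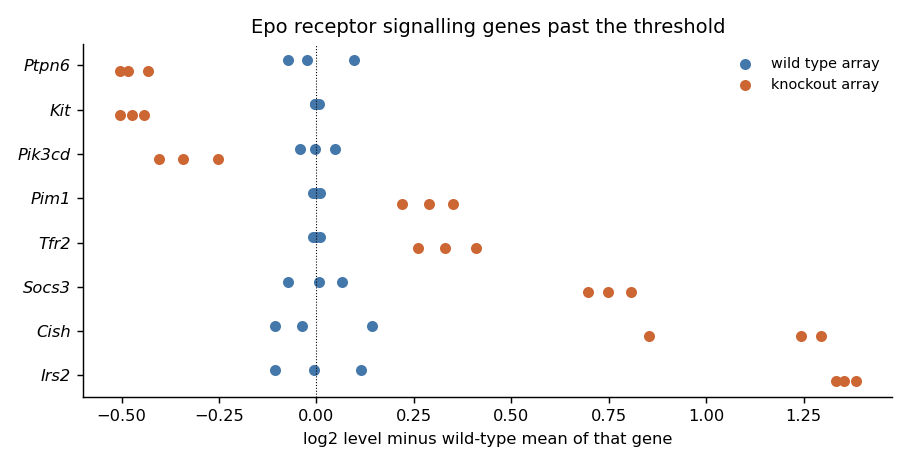
Log2 level of the 8 genes around the Epo receptor that passed the threshold, on each array, minus the wild-type mean of that gene, for wild-type (blue) and knockout (orange) arrays. Ptpn6, Kit and Pik3cd lie below the wild-type arrays, and Pim1, Tfr2, Socs3, Cish and Irs2 lie above them, with log2 changes from -0.47 to 1.36.

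Genes that handle iron and make heme were called at shares near the 7.8% of all tested clusters, though both lists had mean levels above the array medians. Of 22 tested iron genes, 1 rose (Tfr2) and 1 fell, Fbxl5, which targets the iron sensor Ireb2 for degradation, with a log2 change of -0.36 (limma, adjusted p = 0.046). These 2 calls are 9.09% of the list. The Fbxl5 call did not hold on omitting any of the 6 arrays (adjusted p = 0.058 to 0.15). Of 18 tested genes of heme synthesis and globins, 1 fell and 0 rose (limma; 4 and 1 at an unadjusted p under 0.05). The 1 call is 5.56% of the list. That gene was Ppox, an enzyme of the last steps of heme synthesis, with a log2 change of -0.42, from 8.62, 8.66 and 8.63 to 8.34, 8.05 and 8.26. Omitting wild-type array 1 (limma, adjusted p = 0.093), 2 (0.12) or 3 (0.11), or instead knockout array 3 (0.074) ended the call of Ppox. Cpox, the enzyme before Ppox, had a log2 change of -0.26 and passed when knockout array 3 was left out (limma, adjusted p = 0.043), but not otherwise. Alas2, the erythroid form of the first enzyme, was at 4.70, 4.43 and 4.44 in wild type and 4.47, 4.75 and 4.53 in knockout, with overlapping groups.

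Several transcripts of the maturing red cell were dim in both genotypes. Of 31 red cell membrane and skeleton genes with a cluster, 8 were below the limit for testing, including Slc4a1 (band 3), Sptb (β-spectrin), Epb42, Rhd and Trim10. The limit left out 40% of all clusters, a larger share than in this list. Other genes of the list were bright, such as Cd47 at a wild-type mean of 15.96. Of the 23 tested, 1 rose and 1 fell, which is 8.7%, close to the 7.8% of all tested clusters. The list's mean log2 level of 6.20 to 6.26 on wild-type arrays was above the array medians, so that background is not quite like. Slc2a1, the glucose transporter of red cells and many other cells, rose by 1.18 (SE 0.10; limma, adjusted p = 0.0017), from 10.04 ± 0.06 to 11.22 ± 0.19 (SD, n = 3 each). Gypc, encoding glycophorin C, had a log2 change of -0.43. Gypc failed on omitting wild-type array 1 (limma, adjusted p = 0.078), 2 (0.074) or 3 (0.087), or instead knockout array 1 (0.059). The adult α- and β-globin genes were not analysed here.

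Of 21 tested genes of the sphingosine 1-phosphate pathway, 1 rose and 0 fell (limma; 5 and 4 at an unadjusted p under 0.05). That is 4.76%, below the 7.8% of all tested clusters, though the list's mean log2 level of 6.48 to 6.50 on wild-type arrays was above the array medians. S1pr1, a receptor of this lipid that guides cells between marrow and blood, rose by 0.35, from 6.12, 6.08 and 6.15 to 6.50, 6.50 and 6.39. S1pr1 failed on omitting wild-type array 1 (limma, adjusted p = 0.078), 2 (0.097) or 3 (0.081), or instead knockout array 1 (0.072) or 2 (0.069). It also failed with a common median (limma, adjusted p = 0.052) and with the replicate number as a block (0.10). Mfsd2b, the exporter of the lipid from red cells and platelets, had a log2 change of 0.25 and did not pass (adjusted p = 0.053). It passed after quantile normalization (0.033), with the dimmest 60% left out (0.032) and without an intensity trend (0.041). The pathway's count of rises was 3 after quantile normalization or with the dimmest 60% left out.

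Over a wider list of 49 erythroid progenitor markers, 38 were tested, and Car1 was the 1 that fell. The 2 that rose were Itga2b by 0.56 and Cd9 by 0.44, surface proteins that megakaryocyte progenitors also carry. The 38 genes had a median log2 change of 0.01, and the 3 calls are 7.89% of the tested genes, against 7.8% of all tested clusters. This list's mean log2 level, 6.59 to 6.61 on wild-type arrays, was also above the array medians. Cd9 failed on omitting wild-type array 2 (limma, adjusted p = 0.063) or 3 (0.054). With knockout array 3 omitted, Cpox joined Car1 among those that fell. After quantile normalization or with the dimmest 60% left out, 4 of the markers were higher.

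**Figure D5:**
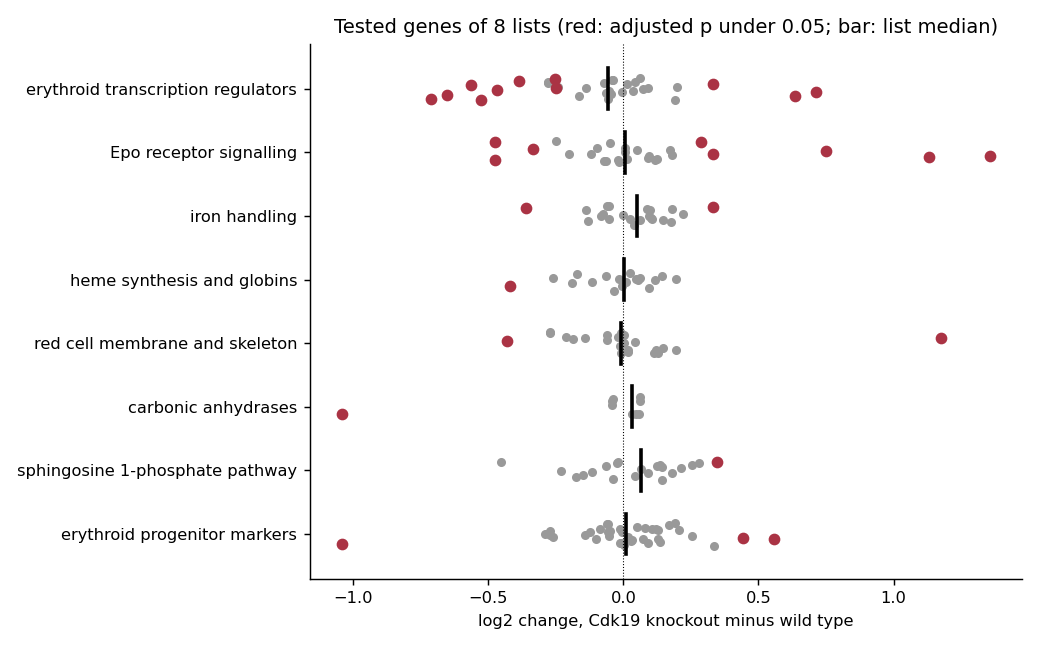
Log2 change (knockout minus wild type) of every tested gene in 8 lists around the erythroid genes. Red points passed the threshold, grey points did not, and black bars are list medians, which lie between -0.06 and 0.07. Car1, at -1.04, stands in both the carbonic anhydrase and the progenitor list.

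Markers of HSCs and of other cells that a marrow sort can hold were counted in the same way, beside 2.96% of all tested clusters higher and 4.84% lower. A list level is the mean log2 level over all genes of a list with a cluster, those too dim to test included. Of 6 tested megakaryocyte markers, 3 rose, Itga2b, Gp9 and Itgb3, and the list level was 6.16 to 6.21 on wild-type and 6.47 to 6.60 on knockout arrays. Of 4 tested markers of lymphoid-primed progenitors, 3 fell, Dntt, Il7r and Flt3, and their list level went from 9.59 to 9.65 in wild type to 8.71 to 8.79 in knockout. Of 4 erythroid markers tested, 0 passed (limma; also 0 at an unadjusted p under 0.05). The erythroid list level was 4.34 to 4.48 in wild type and 4.40 to 4.45 in knockout, with Slc4a1 below the limit. Itgb3 failed on omitting wild-type array 1 (limma, adjusted p = 0.053) or 2 (0.062), or instead knockout array 1 (0.057) or 3 (0.053).

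Of 7 tested HSC markers 2 fell, Hlf and Kit, and Hoxb5 was below the limit, at a list level of 8.71 to 8.76 in wild type and 8.53 to 8.54 in knockout. B cell markers had 2 of 4 lower (Cd79a and Ebf1), at a list level of 4.81 to 4.88 against 4.50 to 4.58 with the untested Ms4a1. Neutrophil markers had 1 of 7 higher, Ctsg (8.94 to 9.03 against 9.07 to 9.30), and mast cell and basophil markers 1 of 5, Cpa3 (7.56 to 7.69 against 7.55 to 7.65). Ctsg failed on omitting any array except wild-type array 1 (limma, adjusted p = 0.053 to 0.11), and Cpa3 on omitting wild-type array 3 (0.051). Of 5 macrophage and 2 T cell markers 0 passed (limma; 0 and 1 at an unadjusted p under 0.05). With the untested C1qa, the macrophage list level was 5.03 to 5.09 against 5.0 to 5.04. With the untested Cd3e and Cd8a, the T cell list level was 4.60 to 4.68 against 4.68 to 4.72. Whether a changed mix of sorted cells has a part in the fall of Car1 was not tested.

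The genes whose levels followed that of Car1 most closely over the 6 arrays, by Pearson correlation among 20251 other tested clusters with 1 gene symbol, were Pecam1, Rab5b and Ifi209, each at 0.999. Pecam1, an adhesion molecule of endothelium, platelets and HSCs, measured 10.03, 10.01 and 10.03 in wild type and 9.55, 9.44 and 9.50 in knockout. Ifi209, an interferon-inducible gene, measured 9.28, 9.22 and 9.27 against 8.25, 7.92 and 8.22, and its log2 change of -1.13 was close to that of Car1. Rab5b, a GTPase of endosomes, had one of -0.51. All 6 arrays share the split by genotype, and 925 of these clusters correlated with Car1 at 0.95 or above, so their order is a description only.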

How the data were processed

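The members and gene lists were chosen with earlier results of these data known. The authors deposited log2 expression values for 65956 transcript clusters on 6 arrays. The submitters' processing notes name MAS5 only. The methods of background correction, probe summary and normalization and the log base were not given in the sources used here, so fold sizes rest on reading the values as log2. Array medians lay between 4.40 and 4.48, and precision is limited by having 6 arrays. The platform annotation gave 30604 clusters 1 gene symbol (repeats of a symbol merged), 2146 several and 33206 none. Those with several or none were not named. Symbols were updated by gene ID through RefSeq (GRCm38.p6). Of the genes in the lists, Hdac1 had a cluster placed on another chromosome than the gene, and its value is less certain.

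Clusters were ranked by their mean over the 6 arrays and the lowest 40% dropped, which kept 39543. Genotype was the only term of a linear model in limma 3.58.1 (R 4.3.3) with an intensity trend. Two-sided p-values were adjusted by Benjamini and Hochberg's method across every tested cluster, with a threshold of 0.05. SE and intervals are the moderated ones. The pipeline was tested on simulated data. Lists are described by counts and medians, on the brightest cluster of each gene. Pairs of genes were compared with an exact two-sided permutation test over the 20 assignments of arrays. Tables and plots used Python 3.11.15, pandas 2.3.3 and matplotlib 3.10.9. The naming rule took the 9 genes, Cdk19, the paralogues, from each list the 2 genes of highest and the 2 of lowest statistic at most and up to 4 called genes with the smallest p, and the 3 genes most like each called member. Alternatives were quantile normalization, a common median, no filter or a stricter one, no trend, the replicate number as a block, and leaving out each array.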

Additional observations from a re-analysis of the deposited data

How the results depend on the processing

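For the 9 erythroid genes, 103 of 104 alternative values kept their direction and their side of the threshold. The exception was Epor, at -0.0067 without wild-type array 3 (range -0.0067 to 0.12). Each gene had 1 cluster, so no other cluster could be tried, and 4 genes were too dim to enter the stricter filter. Deviations from the group means of same-numbered arrays correlated at -0.14, -0.10 and 0.02, and those of different-numbered arrays at -0.13 to 0.21. With 3 arrays in each group, these values cannot decide whether the replicate numbers pair the arrays. With the replicate block, Car1 kept its call (limma, adjusted p = 0.011), and the counts became 4 regulators lower, 3 Epo signalling genes higher, 1 progenitor marker higher, and 0 for both iron counts, heme lower, membrane lower and sphingosine higher. The block ended the calls of Tfr2, Pim1, S1pr1, Gfi1, Cbfa2t3, Lmo2, Ldb1, Mafk, Pik3cd, Fbxl5, Ppox, Gypc, Cd9, Ctsg and Lrrcc1. Their adjusted p-values ran from 0.0502 to 0.16 (limma). With a common median the count of Epo signalling genes higher was 3, and both iron counts and the sphingosine count were 0. Iron lower was 0 with no filter. Sphingosine higher was 3 after quantile normalization or with the dimmest 60% left out and 2 without a trend. Progenitor markers higher were 4 after quantile normalization or with the dimmest 60% left out. The difference between the changes of Klf1 and Klf3 was 0.11 after quantile normalization.

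The count of regulators lower was 4 to 11 over all alternatives, 11 with the dimmest 60% left out. Leaving out 1 array gave 4 to 6 regulators lower, 3 to 5 Epo signalling genes higher, 0 to 1 iron genes higher and 0 lower, 0 to 1 heme and 0 to 1 membrane genes lower, 0 to 1 sphingosine genes higher, and 1 to 2 progenitor markers higher and 1 to 2 lower. Uncalled values near 0 changed sign when an array was left out, over ranges of -0.023 to 0.15 (Alas2), -0.085 to 0.12 (Vpreb1), -0.01 to 0.10 (Camp), -0.01 to 0.11 (Ms4a2), -0.0017 to 0.095 (Adgre1) and -0.10 to 0.0083 (Cd3d). Vpreb1 was at -0.0067 with a common median and Mpo at 0.11 after quantile normalization, also with the opposite sign. Over all tested clusters, 1172 were higher and 1914 lower, against 630 and 1083 with the replicate block and 542 to 971 and 764 to 1508 with an array left out. Of all 1124 values of named genes, 96 lost a call and 10 gained one. The causes were not tested. Dim clusters limit what can be seen for Gata1, Klf1, Epor and Sphk1.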

Other observations

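Car1 lies on chromosome 3 in a run of carbonic anhydrase genes, with Car13 on one side and Car3 and Car2 on the other, per the order of protein-coding genes in the RefSeq table (GRCm38.p6). These neighbours were looked at after the fall of Car1 was seen. Of the 10 nearest protein-coding genes, 5 on each side, 8 had a cluster with 1 gene symbol and 5 were bright enough to test. Of these 5, 1 was lower and 0 were higher, beside 4.84% and 2.96% of all tested clusters. Car13 measured 6.20, 6.29 and 6.29 on the log2 scale in wild type and 6.15, 6.30 and 6.21 in knockout, a log2 change of -0.04 with a 95% interval from -0.20 to 0.12. Car3 was too dim to test. Rbis, 2 genes from Car1, had a log2 change of 0.21 and did not pass (limma, Benjamini-Hochberg adjusted p = 0.32). Lrrcc1, 4 genes away, was the 1 tested neighbour that passed besides Car1, at 9.61, 9.69 and 9.67 in wild type and 9.28, 9.27 and 9.35 in knockout. Its log2 change of -0.36 (limma, adjusted p = 0.013) lost its call without wild-type array 2 (0.069) or 3 (0.070).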
